A study of Mus musculus with 12 samples.

Results

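The levels of 10 genes of zinc handling were followed across sorted mouse prostate cells: the metallothionein genes Mt1 and Mt2, the zinc-sensing transcription factor gene Mtf1, and the zinc transporter genes Slc30a1, Slc30a2, Slc39a1, Slc39a6, Slc39a7, Slc39a8 and Slc39a10. These 10 genes are part of 48795 in the deposited count table. They were picked for the LY6D by SCA1 interaction of Mt2 and for the role of zinc in prostate epithelium. That interaction is therefore described here, and no test of it is given. All 10 were among the 15270 genes that passed the filter on low counts. The cells came from the prostates of wild-type C57BL/6 mice aged 6 to 8 weeks, with no treatment named in the labels. Lineage-negative luminal cells (without CD31, CD45 and Ter119, the surface proteins of endothelium, leukocytes and red cells) were sorted into LY6D+ and LY6D- cells, and each of these into SCA1high, SCA1Int (intermediate) and SCA1low cells. SCA1 is encoded by Ly6a. Each of the 6 populations has 2 libraries. The series text calls them biological replicates without saying if animals or pools differed, and p-values here reflect only how far these libraries spread. The QuantSeq method reads transcripts at their 3' end, so a count is a tally of tags and needs no division by transcript length.

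Zinc enters the cytosol through SLC39 (ZIP) transporters, from outside the cell or from organelles, and leaves it through SLC30 (ZnT) transporters. Free cytosolic zinc is buffered by metallothioneins, small cysteine-rich proteins that also bind copper and cadmium. MTF1 senses zinc and binds metal response elements in the promoters of Mt1, Mt2 and Slc30a1. Prostate secretory epithelium is known for a high zinc content, which restrains mitochondrial aconitase so that citrate can be secreted.

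Mt1 and Mt2 lie side by side on chromosome 8 on the forward strand, with 5513 bases and 0 annotated genes between them (Mt2, ENSMUSG00000031762, 94172664 to 94173568; Mt1, ENSMUSG00000031765, 94179082 to 94180327; GENCODE M21 on GRCm38). Their promoters are shown because both genes had their lowest level in the same population, and that of Slc30a1 because it is a known target of MTF1. Each window is from RefSeq on GRCm38.p6, runs 5′ to 3′ on the forward strand, and holds 250 bases before and 50 after a listed start site. Capitals mark the core of the metal response element, searched as TGCACNC and TGCGCNC on both strands. The windows are chr8:94178839-94179138, chr8:94172368-94172667 and chr1:191906531-191906830.
Mt1: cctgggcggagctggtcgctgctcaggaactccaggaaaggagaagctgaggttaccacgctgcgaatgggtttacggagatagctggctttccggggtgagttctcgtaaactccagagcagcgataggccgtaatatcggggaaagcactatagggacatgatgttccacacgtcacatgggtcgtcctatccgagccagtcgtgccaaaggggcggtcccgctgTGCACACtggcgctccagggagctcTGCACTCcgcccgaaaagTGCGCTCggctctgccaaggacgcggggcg
Mt2: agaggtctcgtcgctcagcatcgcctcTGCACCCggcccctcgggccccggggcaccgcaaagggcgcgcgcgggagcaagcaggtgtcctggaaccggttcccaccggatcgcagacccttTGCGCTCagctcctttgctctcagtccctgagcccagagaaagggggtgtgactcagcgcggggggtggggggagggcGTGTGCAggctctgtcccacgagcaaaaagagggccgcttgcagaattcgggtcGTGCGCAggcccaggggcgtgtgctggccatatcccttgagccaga
Slc30a1: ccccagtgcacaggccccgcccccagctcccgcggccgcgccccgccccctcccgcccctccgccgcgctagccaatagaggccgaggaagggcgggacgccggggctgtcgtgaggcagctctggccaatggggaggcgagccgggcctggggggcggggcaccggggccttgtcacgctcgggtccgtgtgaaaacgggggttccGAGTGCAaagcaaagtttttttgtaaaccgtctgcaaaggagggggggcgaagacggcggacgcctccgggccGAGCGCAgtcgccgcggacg

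The Mt1 window held 3 matches, all forward, and the Mt2 window 4, of which 2 were forward and 2 reverse. The Slc30a1 window held 2, both reverse. Of 32851 promoter windows of the same length, 25.7% held at least 1 match, 7.11% at least 2, 1.97% at least 3 and 0.517% at least 4. Windows were listed for 9 of the 10 genes. Slc30a2 had 2 matches, Slc39a8 had 1 in the second of its windows and 0 in the other, and the windows of Mtf1, Slc39a1, Slc39a7 and Slc39a10 had 0. A match describes the letters and does not show that a factor binds there.

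The libraries held 8436185 to 20022077 counts. Ly6d stood at 37.0 to 397 CPM (TMM-scaled counts, relative to library size) in LY6D+ libraries and at 0.433 to 3.85 in LY6D- libraries, and Ly6a at 181 to 593 CPM in SCA1high against 3.37 to 68.8 in SCA1low libraries. Of the luminal markers, the keratin genes Krt8 and Krt18 stood at 66.4 to 276 CPM and 108 to 502 CPM over the 12 libraries, the epithelial adhesion gene Epcam at 38.6 to 175 CPM, Cd24a at 69.1 to 358 CPM and Hoxb13 at 37.8 to 484 CPM, so none of these was at 0 in any library. Across genes (not independent points), the correlation within a population was 0.59 to 0.68, and all 12 libraries were closer to a library of another population. LY6D-SCA1low replicate 2 correlated at 0.75 with LY6D-SCA1high replicate 1 and at 0.68 with its own replicate. It and LY6D+SCA1high replicate 2, the shallowest library, were doubted in earlier work on these data, and called results are given with and without both. The 0.75 was the highest correlation of any pair of libraries, and the LY6D+SCA1high pair had the lowest within a population (0.59). A correlation belongs to both libraries of a pair, so these values do not tell which of them differs. LY6D+SCA1high replicate 2 also had the fewest genes with at least 10 counts (7512).

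Metallothionein tags were lowest in LY6D-SCA1high cells. Mt2 stood at 1189.6 and 878 CPM in the 2 LY6D-SCA1high libraries. In the other LY6D- libraries it stood at 4772 and 3692 CPM at SCA1Int and at 3865 and 3458 CPM at SCA1low. In LY6D+ cells it stood at 4913 and 3165 CPM at SCA1high, 4456 and 2974 CPM at SCA1Int and 3754 and 3548 CPM at SCA1low. The 10 libraries of the other 5 populations thus lay above both LY6D-SCA1high libraries, and among those 5 populations each overlapped its neighbour in the order of means. The means ran from 4232 ± 764 CPM in LY6D-SCA1Int, through 4039 ± 1237 in LY6D+SCA1high, 3715 ± 1048 in LY6D+SCA1Int and 3661 ± 288 in LY6D-SCA1low, to 3651 ± 146 in LY6D+SCA1low, and dropped to 1034 ± 220.3 in LY6D-SCA1high (SD, n = 2). Mt2 was among the most abundant transcripts: its rank by CPM among the tested genes ran from 5 to 91 over the 12 libraries.

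Mt1 shared the low point and had a different high point. It stood at 156 and 151 CPM in LY6D-SCA1high, below the 10 other libraries, and at 1002 and 977 CPM in LY6D-SCA1low, above the 10 others. LY6D-SCA1Int libraries held 479 and 332 CPM. LY6D+ libraries held 441 and 689.7 CPM at SCA1high, 425 and 285 CPM at SCA1Int and 661 and 295 CPM at SCA1low. Among LY6D+ cells the SCA1low libraries overlapped both other populations, while both SCA1high libraries lay above both SCA1Int libraries. Both metallothionein genes thus had LY6D-SCA1high wholly below the 10 other libraries, as did 1.35% of tested genes (4.36% had it wholly above). This population sets the interaction for which Mt2 was picked, and the grouping was chosen after the values were seen. The share is therefore a description and no separate support for the pattern. Mt1 made up 20.6% and 22.0% of the tags of both genes in LY6D-SCA1low. In the remaining 10 libraries its share was 7.68% to 17.9%.

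**Figure D1:**
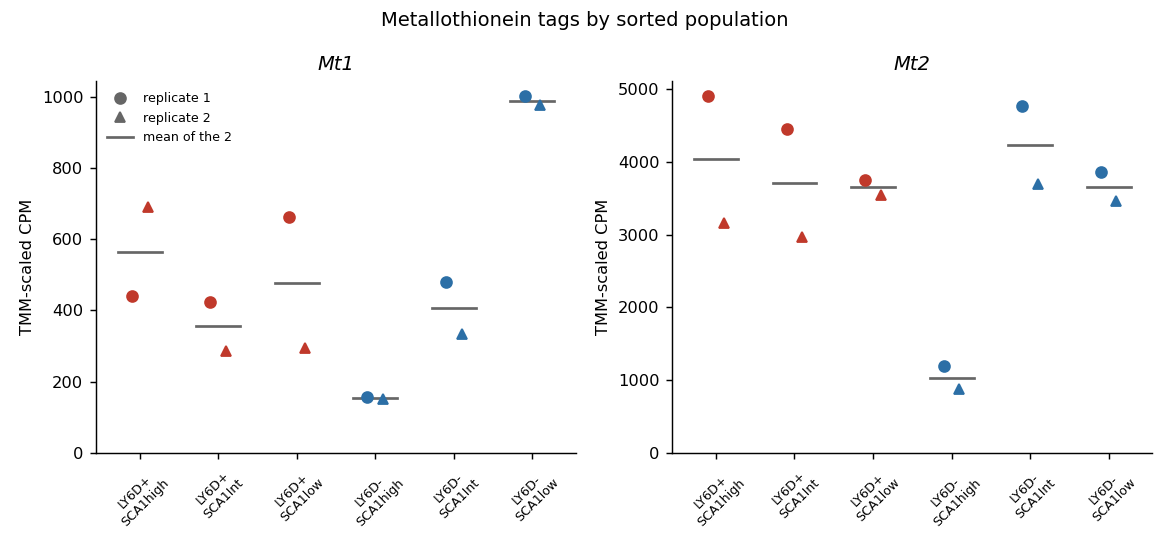
TMM-scaled CPM of Mt1 (left) and Mt2 (right) in the 6 populations; circles are replicate 1, triangles replicate 2, bars the mean of both, red LY6D+ and blue LY6D-. Both genes are lowest in LY6D-SCA1high (151 to 156 CPM for Mt1, 878 to 1189.6 for Mt2), and Mt1 is highest in LY6D-SCA1low (977 to 1002 CPM).

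Along SCA1, the metallothionein values lay far apart in LY6D- cells and nearer to each other in LY6D+ cells. In LY6D- cells the log2 fold change from SCA1low to SCA1high was -1.82 ± 0.24 (SE) for Mt2 and -2.69 ± 0.47 for Mt1. In LY6D+ cells it was 0.15 ± 0.24 and 0.24 ± 0.44. Between LY6D states at SCA1high, the log2 fold change of LY6D+ over LY6D- was 1.97 ± 0.25 for Mt2 and 1.88 ± 0.45 for Mt1. At SCA1Int these were -0.19 ± 0.24 and -0.19 ± 0.44. At SCA1low Mt2 stood level (0.00 ± 0.24) while Mt1 was lower in LY6D+ cells (-1.05 ± 0.44). These steps make up the interaction for which Mt2 was picked, so they carry no test. In every alternative fit both genes kept the sign of the LY6D difference at SCA1high. It ran from 1.60 to 2.25 for Mt2 and from 1.26 to 2.16 for Mt1, the lowest Mt1 value without LY6D+SCA1high replicate 2. These fits reuse the same libraries, so the kept sign is no separate support for the pattern.

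Averaged over the other marker, 1 of the 10 genes differed between LY6D states and 2 between SCA1high and SCA1low. For Mt2 the log2 fold change of LY6D+ over LY6D- was 0.59 ± 0.14 (adjusted p = 0.0153). All such values are from the edgeR quasi-likelihood test, adjusted by Benjamini-Hochberg over every tested gene and called below 0.05. That average combines 1.97 at SCA1high with -0.19 and 0.00 at both other levels, so it rests on LY6D-SCA1high, the population behind the interaction for which Mt2 was picked, and it is no separate support for that pattern. The same holds for the SCA1 averages of Mt1 and Mt2. From SCA1low to SCA1high, Mt2 fell by 0.84 ± 0.17 on the log2 scale (adjusted p = 0.00517) and Mt1 by 1.22 ± 0.31 (adjusted p = 0.0479). From SCA1Int to SCA1high, Mt2 fell by 0.96 ± 0.17 (adjusted p = 0.00615). Over all tested genes edgeR called 2.48% between LY6D states (1.27% higher), 1.21% between SCA1high and SCA1low (0.779% lower), 0.334% between SCA1Int and SCA1low and 0.138% between SCA1high and SCA1Int (0.124% lower). Between SCA1Int and SCA1low edgeR called 0 of the 10 genes. Mt1 and Slc39a10 reached an unadjusted p of less than 0.05 there, as did 9.65% of all tested genes, and Slc39a10 was the 1 gene that DESeq2 called (5.92% of all genes). Between SCA1high and SCA1Int 1 of the 10 did (8.83% of all), and DESeq2 called 0 of them (3.74% of all). Without both doubted libraries, edgeR called the same genes: Mt2 at 0.67 ± 0.13 between LY6D states (adjusted p = 2.1e-05), and Mt2 at -0.72 ± 0.16 (adjusted p = 0.00142) and Mt1 at -1.40 ± 0.39 (adjusted p = 0.0345) between SCA1high and SCA1low. The LY6D call of Mt2 was lost with RLE size factors, DESeq2, limma-trend and the model without interaction (adjusted p = 0.0529 to 0.294), and the Mt1 call on SCA1 without LY6D+SCA1high replicate 1 (-1.07, adjusted p = 0.16) or LY6D+SCA1low replicate 1 (-0.91, adjusted p = 0.342), both by edgeR. That Mt1 call was also lost with limma-trend (-1.33, adjusted p = 0.0693), and the model without interaction lost the SCA1 calls of Mt1 (-1.11, adjusted p = 0.417) and Mt2 (-0.70, adjusted p = 0.438). With library size as the only scaling, the SCA1high against SCA1low values shrank to -0.33 for Mt2 and -0.74 for Mt1 and neither was called, while the median of all tested genes moved from 0.15 to 0.63. With RLE size factors that median was -0.12, and both calls stayed (-1.13 and -1.49).

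**Figure D2:**
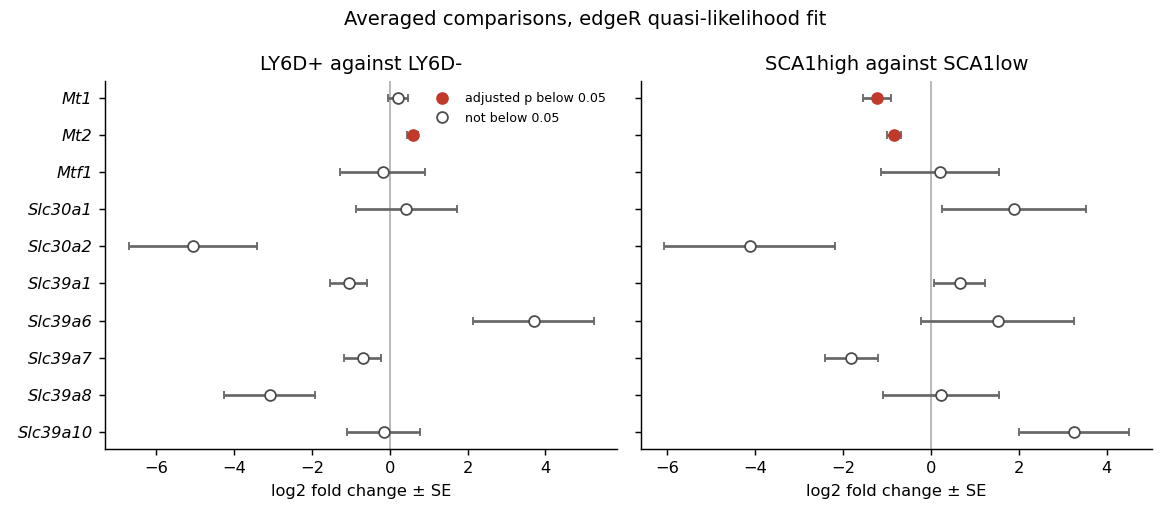
Log2 fold change (points) with its SE (bars) for the 10 genes, LY6D+ against LY6D- on the left and SCA1high against SCA1low on the right; filled points have an edgeR adjusted p below 0.05. Mt2 is filled in both panels (0.59 and -0.84) and Mt1 on the right (-1.22); Mtf1 and the transporters have wider errors than Mt1 and Mt2.

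Endothelial markers were highest in the population where both metallothionein genes were lowest. The 8 markers Pecam1, Cdh5, Kdr, Flt1, Emcn, Egfl7, Tek and Tie1 summed to 2652 and 2699 CPM in LY6D-SCA1high and to 12.1 to 1012 CPM in the 10 other libraries. None of the 8 was at 0 in LY6D-SCA1high, and 1 of the 8, Cdh5, was at 0 in a single other library, LY6D+SCA1Int replicate 1. The LY6D-SCA1Int libraries, with the next highest sums (748 and 1012 CPM), held 4772 and 3692 CPM of Mt2, within the range of the other populations. In LY6D-SCA1high Krt8 stood at 72.9 and 101 CPM and Epcam at 80.4 and 60.8 CPM, within the range of the other libraries. Krt18 stood at 107.6 and 108.1 CPM there, below every other library (128 to 502 CPM). Hoxb13 stood at 37.8 and 49.2 CPM, against 39.0 to 484 CPM in the others. Leukocyte markers summed to 0.156 and 1.61 CPM there, and to 0.346 to 90.7 CPM in the other libraries. Fibroblast markers summed to 573 and 426 CPM there (208 to 1269 elsewhere), smooth muscle markers to 20.3 and 44.8 (3.07 to 132 elsewhere). Erythroid markers summed to 28.4 and 91.9 CPM there (4.07 to 828 elsewhere, highest in LY6D-SCA1low replicate 1). Of 5 tested fibroblast markers edgeR called 1 between LY6D states, Dcn (1.48 ± 0.22, adjusted p = 0.000141), and 2 of the 5 leaned higher in LY6D+ cells. Epithelial states also differed with LY6D and with SCA1. The 6 secretory markers were all lower in LY6D+ than in LY6D- cells and in SCA1high than in SCA1low cells (6 of 6 called in each by edgeR), with sums of 2893 and 4937 CPM in LY6D-SCA1high, 1412 to 3132 in LY6D+SCA1high and LY6D+SCA1Int, and 19125 to 102367 in the other 6 libraries. Of 6 basal markers 5 were called higher in LY6D+ cells, with sums of 2071 to 4408 CPM in LY6D+ and 185 to 1728 CPM in LY6D- libraries. LY6D+SCA1high cells, with secretory sums of 1940 and 1412 CPM, below those of LY6D-SCA1high, held 4913 and 3165 CPM of Mt2. Features of the ribosomal RNA repeat took 19.5% to 24.4% of the counts in SCA1low and 6.97% to 16.9% in the other libraries. The part of endothelial or other non-epithelial RNA, these epithelial states or ribosomal RNA in the values of the 10 genes was not tested. In sorted bulk samples, fewer cells of a type and less RNA per cell cannot be told apart.

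**Figure D3:**
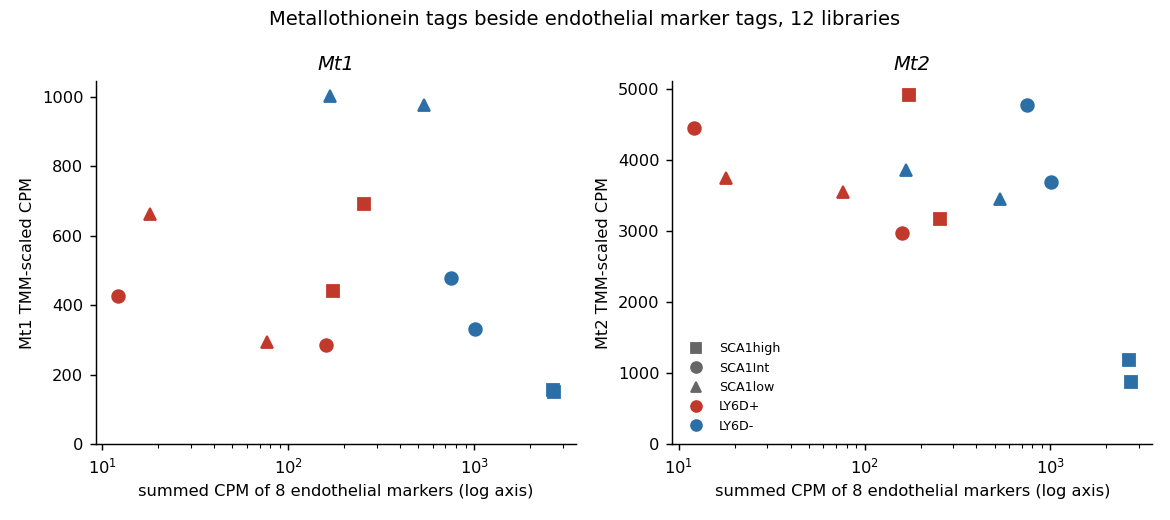
CPM of Mt1 (left) and Mt2 (right) against the summed CPM of 8 endothelial markers (log axis) in the 12 libraries; squares are SCA1high, circles SCA1Int, triangles SCA1low, red LY6D+ and blue LY6D-. The 2 LY6D-SCA1high libraries sit at the lower right of each panel, at 2652 and 2699 CPM of endothelial markers.

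Some counts are shared with overlapping genes, and the strand setting of the counting is not given in the sources used here. Gm45774, an antisense RNA gene that overlaps 749 of the 905 bases of Mt2, held 14.8% to 24.2% of the Mt2 count in every library, so it followed Mt2 closely and the reads of the pair cannot be told apart. Gm20427, on the same strand as Slc39a7 and overlapping 3312 of its bases, held 84.5% to 145% of the Slc39a7 count. The antisense gene 1110065P20Rik overlaps 721 bases of Mtf1. Its count was within 20% of the Mtf1 count in 8 of 12 libraries, and in LY6D-SCA1high replicate 2 it was 19 against 1060 for Mtf1. Most Mtf1 counts are therefore uncertain as to the gene that was read. Elp2, antisense to Slc39a6 over 952 bases, was within 20% of its count in 2 of 12 libraries. No other gene had the same count as any of the 10 in all 12 libraries.

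**Figure D4:**
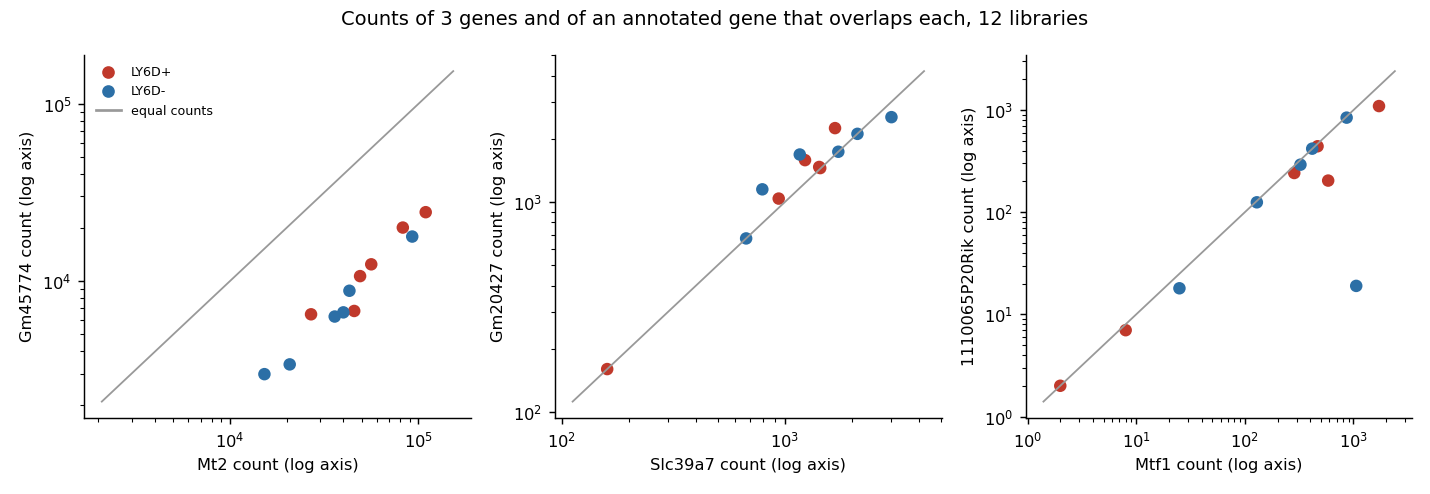
Raw counts of Mt2, Slc39a7 and Mtf1 (horizontal, log axis) against those of the overlapping genes Gm45774, Gm20427 and 1110065P20Rik (vertical, log axis) in the 12 libraries; red is LY6D+, blue LY6D-, and the line marks equal counts. Gm45774 runs parallel to the line at 14.8% to 24.2% of Mt2, and the other 2 partners lie mostly on the line.

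Mtf1 (ENSMUSG00000028890, chromosome 4, 124802104 to 124849800), the sensor of the system, showed no difference beyond its replicate spread. It stood at 26.3 and 0.235 CPM in LY6D+SCA1high, 92.7 and 15.1 in LY6D+SCA1Int and 35.8 and 0.622 in LY6D+SCA1low. In LY6D- cells it stood at 25.4 and 44.9 CPM at SCA1high, 44.5 and 11.1 at SCA1Int and 2.69 and 36.1 at SCA1low. Libraries of the same population differed by a median of 3.05 on the log2(CPM + 0.5) scale, against 1.36 over 4049 genes of similar abundance (mean log2 CPM from 3 to 6). The log2 fold change was -0.18 ± 1.09 between LY6D states (adjusted p = 0.994) and 0.20 ± 1.34 between SCA1high and SCA1low (edgeR adjusted p = 0.993). Its direction between SCA1high and SCA1low turned with RLE size factors (-0.04), so no direction is given.

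Of the exporters, Slc30a1 (ENSMUSG00000037434, chromosome 1, 191906767 to 191913247) encodes the transporter that carries zinc out across the plasma membrane. It stood at 27.1 and 24.5 CPM in LY6D-SCA1high, where both libraries were close, and at 13.0 and 2.83 in LY6D-SCA1Int and 0.43 and 2.51 in LY6D-SCA1low. In LY6D+ cells its libraries spread from 0.593 to 45.04 CPM, with 45.04 and 1.4 CPM in the 2 of SCA1low. Its fold changes were 0.42 ± 1.3 for LY6D and 1.89 ± 1.64 for SCA1, and neither was called by edgeR (adjusted p = 0.938 and 0.66). Its level was not lowest in the population where Mt1 and Mt2 were lowest, and any link between these levels was not tested.

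Slc30a2 (ENSMUSG00000028836, chromosome 4, 134343181 to 134354484) encodes a transporter that loads zinc into vesicles, known from secretory glands. LY6D+ libraries held 0.0899 and 0.118 CPM at SCA1high, 0.108 and 0.529 at SCA1Int and 8.81 and 0.778 at SCA1low. LY6D- libraries held 0 and 15.0 CPM at SCA1high, 17.8 and 14.7 at SCA1Int and 104 and 1.56 at SCA1low. The 0 is a count of 0, which allows up to 0.235 CPM (3 counts, counting error only). Of the 6 LY6D- libraries, 4 thus lay above every LY6D+ library, and the groups overlapped through the other 2. The log2 fold change of LY6D+ against LY6D- was -5.06 ± 1.66 (unadjusted p = 0.0049, edgeR adjusted p = 0.0904), which depends on near-zero counts on the LY6D+ side. The value rested on single libraries. It was -1.78 ± 30.9 without LY6D-SCA1high replicate 2 and -3.43 ± 1.98 without LY6D-SCA1low replicate 1 (edgeR adjusted p = 1 and 0.425), and it passed the threshold without LY6D-SCA1low replicate 2 (-5.41, edgeR adjusted p = 0.0422) and in DESeq2. From SCA1low to SCA1high it was -4.13 ± 1.95 (edgeR adjusted p = 0.404), and between -9.20 (without LY6D-SCA1high replicate 2) and -1.64 (without LY6D-SCA1low replicate 1) with single libraries left out.

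Of the importers, Slc39a1 (ENSMUSG00000052310, chromosome 3, 90248172 to 90253612) encodes a plasma membrane transporter described as a main route of zinc uptake in prostate cells. LY6D- libraries held 112 and 273 CPM at SCA1high, 81.0 and 171 at SCA1Int and 126 and 73.6 at SCA1low. LY6D+ libraries held 76.4 and 52.7 CPM at SCA1high, 103 and 62.7 at SCA1Int and 50.9 and 49.9 at SCA1low. The groups overlapped, and the log2 fold change of -1.06 ± 0.48 was not called by edgeR (unadjusted p = 0.0352, adjusted p = 0.202).

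Slc39a8 (ENSMUSG00000053897, chromosome 3, 135825279 to 135888572) encodes an importer of zinc, manganese and cadmium. LY6D- libraries held 17.3 and 37.7 CPM at SCA1high, 51.3 and 11.6 at SCA1Int and 72.9 and 49.4 at SCA1low. LY6D+ libraries held 28.1 and 0.118 CPM at SCA1high, 1.02 and 1.59 at SCA1Int and 7.89 and 1.32 at SCA1low. Only LY6D+SCA1high replicate 1 reached the LY6D- range. The log2 fold change of -3.09 ± 1.18 was not called (unadjusted p = 0.0138, edgeR adjusted p = 0.13). Without that library it was -5.36 (edgeR adjusted p = 0.048).

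Slc39a6 (ENSMUSG00000024270, chromosome 18, 24579881 to 24603817), known as LIV-1 from estrogen-responsive breast cancer cells, had the opposite lean. LY6D+ libraries held 11.1 and 6.47 CPM at SCA1high, 32.5 and 9.9 at SCA1Int and 14.3 and 23.7 at SCA1low. LY6D- libraries held 0.86 and 10.4 CPM at SCA1high, 0.515 and 1.29 at SCA1Int and 0.538 and 0.0866 at SCA1low. Only LY6D-SCA1high replicate 2 reached the LY6D+ range. The log2 fold change was 3.70 ± 1.55 (unadjusted p = 0.0239, edgeR adjusted p = 0.166). Slc39a6, Slc39a8, Slc30a2 and Slc39a1 were called between LY6D states by DESeq2, at log2 fold changes of 3.53, -3.24, -5.26 and -1.22 (adjusted p = 0.000236 to 0.0361). DESeq2 called 16% of all genes there, against 2.48% for edgeR, and did not call Mt2. At an unadjusted p below 0.05, edgeR had 5 of the 10 genes, against 20.4% of all tested genes.

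Slc39a10 (ENSMUSG00000025986, chromosome 1, 46807544 to 46892852) encodes a close relative and partner of the Slc39a6 protein. Its SCA1low libraries stood apart from the rest. It stood at 24.7 and 37.2 CPM in LY6D+SCA1high, 53.9 and 27.6 in LY6D+SCA1Int and 4.06 and 1.71 in LY6D+SCA1low. In LY6D- cells it stood at 40.8 and 25.2 CPM at SCA1high, 40.9 and 38.7 at SCA1Int and 2.47 and 5.19 at SCA1low. All 8 SCA1high and SCA1Int libraries lay above all 4 SCA1low libraries. Slc39a10 was the 1 gene of the 10 with SCA1high wholly above SCA1low (2.36% of tested genes) and with SCA1Int wholly above SCA1low (1.91%). Among all tested genes, 0.504% had the SCA1low libraries below the 8 others; this grouping was chosen after the values were seen. The log2 fold change was 3.26 ± 1.26 from SCA1low to SCA1high (unadjusted p = 0.0149, edgeR adjusted p = 0.305) and 3.59 ± 1.27 from SCA1low to SCA1Int (unadjusted p = 0.00874, edgeR adjusted p = 0.487). Neither was called by edgeR. Between LY6D states it was -0.16 ± 0.94 (edgeR adjusted p = 0.993).

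Slc39a7 (ENSMUSG00000024327, chromosome 17, 34028269 to 34031682) encodes the transporter that releases zinc from the endoplasmic reticulum and Golgi into the cytosol, and it ran the other way along SCA1. SCA1low libraries held 109 and 131 CPM in LY6D+ and 187 and 260.2 in LY6D- cells. SCA1high libraries held 42.2 and 18.8 CPM in LY6D+ and 52.5 and 89.6 in LY6D- cells, and SCA1Int libraries 66.4 and 76.3 in LY6D+ and 40.8 and 100.2 in LY6D- cells. On the TMM scale all 4 SCA1low libraries lay above the 8 others, as for 0.55% of tested genes. Slc39a7 was the 1 gene of the 10 with SCA1high wholly below SCA1low (2.65% of tested genes) and with SCA1Int wholly below SCA1low (1.17%). These separations depend on that scaling. Relative to total counts alone, LY6D+SCA1low replicate 1 (1426 of 16361576) lay below LY6D-SCA1high replicate 2 (2116 of 20022077) and LY6D-SCA1Int replicate 2 (1167 of 11465798). For 0 of the 10 did SCA1high and SCA1Int separate (1.03% of tested genes higher, 1.68% lower), and for 0 did LY6D+ and LY6D- (0.812% higher, 0.57% lower). The log2 fold change from SCA1low to SCA1high was -1.81 ± 0.61 (unadjusted p = 0.00595), not called by edgeR (adjusted p = 0.21). DESeq2 called it (-2.09, adjusted p = 0.00227), as it called Slc39a10 (3.01, adjusted p = 0.000991), Slc30a2, Mt1 and Mt2, where it called 9.87% of all genes. At an unadjusted p below 0.05, edgeR had 5 of the 10 genes in this comparison, against 12.1% of all tested genes.

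**Figure D5:**
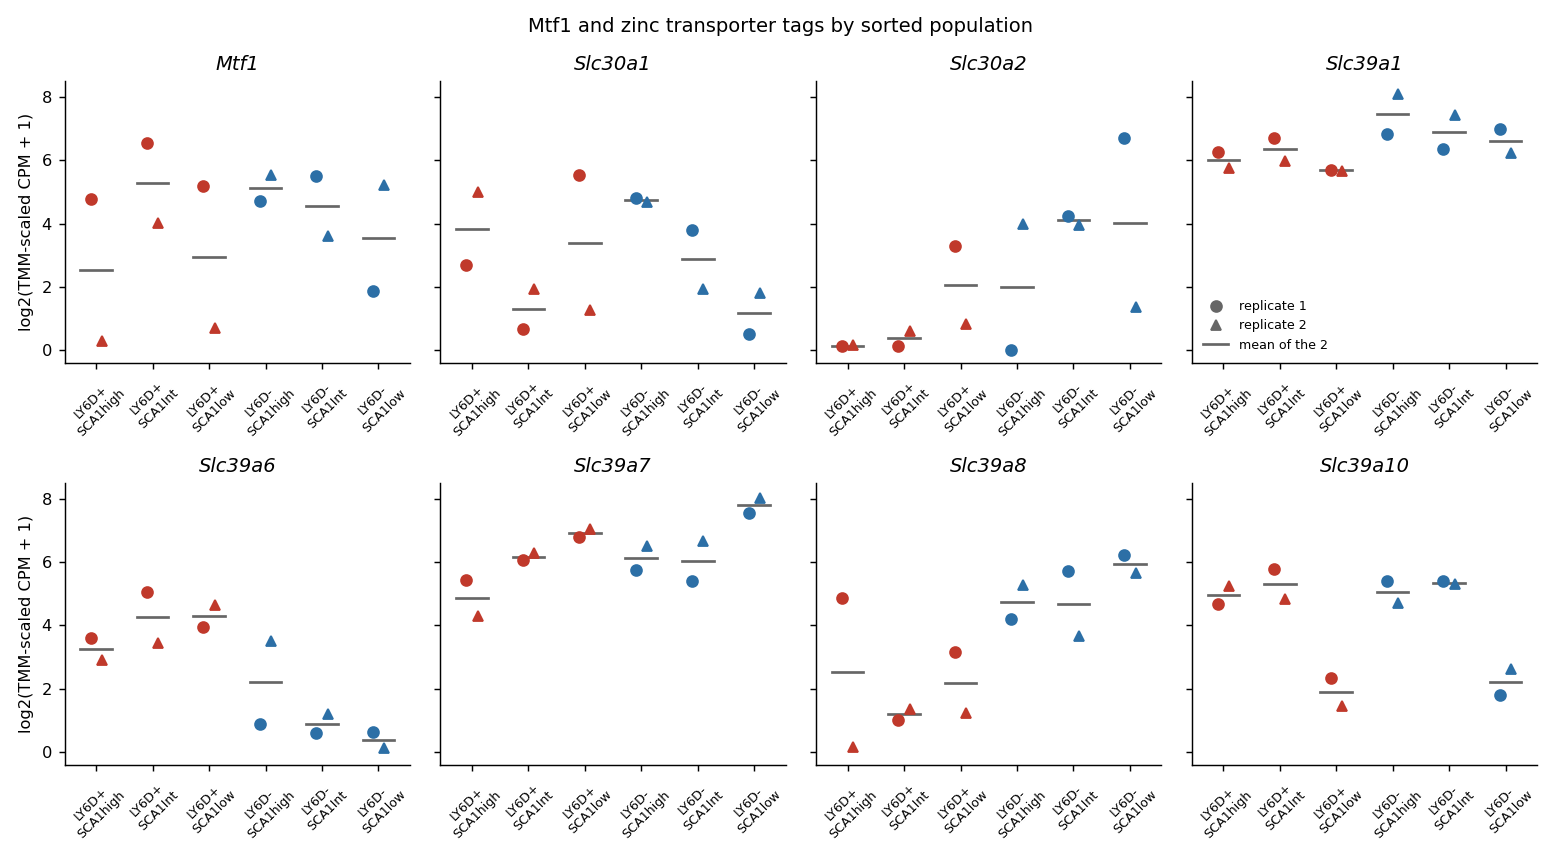
Levels of Mtf1 and 7 zinc transporter genes, as log2(TMM-scaled CPM + 1), in the 6 populations; circles are replicate 1, triangles replicate 2, bars the mean of both, red LY6D+ and blue LY6D-. Slc39a10 is low in both SCA1low populations (1.71 to 5.19 CPM) and Slc39a7 is highest there (109 to 260.2 CPM), while Mtf1, Slc30a1 and Slc30a2 differ widely between libraries of the same population.

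Within single steps edgeR called 0 of the 8 genes other than Mt1 and Mt2. The LY6D comparison had 0, 1 and 0 of the 8 at an unadjusted p below 0.05 at SCA1high, SCA1Int and SCA1low, against 11.7%, 6.17% and 12% of all tested genes. The 1 was Slc39a8 (-4.58 ± 2.18, unadjusted p = 0.0452). Over all tested genes edgeR called 0.262%, 0.203% and 0.472% in these steps. DESeq2 called Slc30a2 at SCA1high, 0 at SCA1Int, and Slc39a6 and Slc39a8 at SCA1low, where it called 8.21%, 3.94% and 12.6% of all genes. SCA1high against SCA1low had 1 of the 8 at an unadjusted p below 0.05 in LY6D+ cells, Slc39a7 (-1.97 ± 0.87, unadjusted p = 0.0305), and 0 in LY6D- cells, against 8.61% and 6.65% of all tested genes. EdgeR called 0.327% and 0.635% of all tested genes in these steps. DESeq2 called Slc39a10 in LY6D+ cells and 0 of the 8 in LY6D- cells, where it called 7.79% and 4.34% of all genes. The spread between libraries differed among the genes. The biological coefficient of variation in the fit was 0.43 for Mt2, 0.50 for Mt1, 0.67 for Slc39a1 and 0.68 for Slc39a7, and 1.06 to 1.41 for the 6 others.

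The rest of the zinc system varied in level. Some genes were at 0 counts, while Slc39a9 stood at 0 to 91.6 CPM and Slc39a11 at 0.118 to 113 CPM. Of 11 other SLC30 and metallothionein genes, 6 were tested and 0 were called by edgeR between LY6D states or between SCA1high and SCA1low (1 in each at an unadjusted p below 0.05, Mt3 both times), with medians of -1.23 and -1.13 against 0.03 and 0.15 for all tested genes. Mt3, the metallothionein known from brain, stood at 41.9 CPM in LY6D-SCA1low replicate 1 and at 0 to 4.21 CPM elsewhere, so it rests on a single library. Slc30a8 was at 0 counts in all libraries, and Mt4 stood at 0 to 0.0529 CPM. Of 9 other SLC39 genes, 7 were tested and 0 called, with medians of -0.42 and -0.44. Slc39a11 (-3.36 ± 1.18, unadjusted p = 0.00795, edgeR adjusted p = 0.109) and Slc39a5 (4.05 ± 1.88, unadjusted p = 0.0406, edgeR adjusted p = 0.218) had the smallest p-values of that list between LY6D states. Both were chosen for mention after their values were seen. For the 10 genes followed here the medians were -0.17 and 0.22.

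As a description of likeness, log2 CPM over the 12 libraries was correlated between each metallothionein gene and each of 5052 tested genes whose mean log2 CPM reached 3. Mt1 was most like Cox8a (Pearson r = 0.89, Spearman rho = 0.94), Rpl10 (0.89 and 0.94), Rpl10-ps3 (0.88 and 0.87), Uggt1 (0.87 and 0.93) and Sars (0.87 and 0.78). Rpl10-ps3 is a near copy of Rpl10, so their reads may be shared. Mt2 was most like Snhg18 (0.89 and 0.62), St5 (0.89 and 0.80), Cdh1 (0.88 and 0.45), Cdc42bpg (0.87 and 0.31) and Rps28 (0.86 and 0.50). The lower rank correlations of Mt2 go with a pattern set by the 2 LY6D-SCA1high libraries. Mt1 and Mt2 correlated with each other at r = 0.71 (rho = 0.51), the highest r of the 45 pairs among the 10 genes. Slc30a2 with Slc39a8 followed (0.58 and 0.58) and was higher by rho. Negative correlations were as strong: Slc39a7 with Slc39a10 stood at -0.71 (rho = -0.69) and Slc39a6 with Slc39a8 at -0.64 (rho = -0.67).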

How the data were processed

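RNA was measured in 12 libraries of 6 sorted populations. Per the labels' protocols, 10 to 20 ng of total RNA went into each QuantSeq 3' library. The submitters' processing notes name the build mm10, featureCounts, Subread and edgeR, STAR 2.5.1 and cutadapt 1.9.1, and SAMtools 1.3.1 with Picard 1.96. The annotation and the strand setting: not given in the sources used here. The authors deposited raw counts per Ensembl gene, used for all main tests. They also deposited a normalised signal, CPM with a factor per library that differed from a recomputed TMM factor by a relative 6.7e-16 at most, used for 1 alternative.

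Symbols were matched for 48349 of 48795 identifiers. Tests used R 4.3.3 and edgeR 4.0.16: filterByExpr by population, TMM scaling, 1 mean per population over all 12 libraries (6 residual degrees of freedom), glmQLFit and glmQLFTest, with Benjamini-Hochberg adjustment over 15270 genes and a threshold of 0.05. The SE is the log2 fold change over the root of F. The code was tested on simulated data. Libraries held 8436185 to 20022077 counts; without molecular identifiers, limits from counts cover counting error only. The genes, lists, rules and alternatives were chosen with earlier results of these data known. All 10 genes are named; of other lists, at most 4 called genes by p-value, and the 5 genes most like Mt1 and Mt2. Alternatives were RLE factors, library size only, no filter, DESeq2 1.42.0, limma-trend (limma 3.58.1) on log2 of the deposited signal plus 1, a replicate block, a model without interaction, ribosomal RNA features left out, each library left out, and both doubted libraries left out. The share of genes with SCA1low or LY6D-SCA1high libraries apart from the rest was added after seeing the data. Protein sequences were not used here. Some markers of the luminal list are not reported here.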

Additional observations from a re-analysis of the deposited data

Results flagged for a closer look

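For 3 genes the LY6D or SCA1 difference took other values at the levels of the other marker, and no test of these gaps is given. Mt2 was flagged by an edgeR adjusted p below 0.05 for the interaction that it was picked for, so the flag is no separate support. Mt1 and Slc39a6 were flagged because their libraries separated without overlap in opposite directions. For Mt2 the log2 fold change of LY6D+ against LY6D- cells was larger at SCA1high than at SCA1low by 1.97, the value for which the gene was picked, so it is given with no test. For Mt1 the gap was 2.93: both LY6D+ libraries exceeded both LY6D- libraries at SCA1high (441 and 689.7 against 156 and 151 CPM) and lay below both at SCA1low (661 and 295 against 1002 and 977 CPM). For Slc39a6 it was -5.27 ± 3.63 (SE): SCA1high libraries lay below SCA1low libraries in LY6D+ cells (11.1 and 6.47 against 14.3 and 23.7 CPM) and above them in LY6D- cells (0.86 and 10.4 against 0.538 and 0.0866 CPM). The LY6D- values of Slc39a6 are 11 and 246 against 5 and 1 counts, so that side rests mostly on LY6D-SCA1high replicate 2. In that library the antisense gene Elp2 held 508 counts. The gaps of Mt1 and Slc39a6 are given with no test, since the genes followed here were picked in part for this interaction of Mt2.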

How the results depend on the processing

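Of the 10 genes, edgeR called 1 between LY6D states, 0 with RLE size factors, limma-trend or the model without interaction, 4 with DESeq2, and 1 to 2 with single libraries left out. Between SCA1high and SCA1low it called 2, 0 with library size only or the model without interaction, 1 with limma-trend, 5 with DESeq2, and 1 to 2 with single libraries left out. SCA1Int against SCA1low went from 0 to 1 with DESeq2, and SCA1high against SCA1Int from 1 to 0 with library size only or DESeq2. Single steps went from 0 to 1 (LY6D at SCA1high), 2 (LY6D at SCA1low) and 1 (SCA1 in LY6D+) with DESeq2. In the LY6D and SCA1high against SCA1low averages, the directions that turned were of values that were not called. For LY6D these were Slc30a1 with limma-trend (-0.0581), Mtf1 without both doubted libraries (1.10), and, with single libraries left out, Mt1 (-0.0947 to 0.374), Mtf1 (-2.10 to 0.72), Slc30a1 (-0.96 to 1.04) and Slc39a10 (-0.48 to 0.0260). For SCA1 these were Mtf1 with RLE (-0.0425) or DESeq2 (-0.0426), and Slc39a8 with RLE (-0.0691), DESeq2 (-0.0680) or limma-trend (-0.55), and, with single libraries left out, Mtf1 (-2.67 to 2.57) and Slc39a8 (-3.16 to 1.06). The untested metallothionein steps near 0 also changed sign with single libraries left out (LY6D at SCA1Int, -0.494 to 0.133 for Mt1 and -0.493 to 0.0951 for Mt2; SCA1 in LY6D+, -0.529 to 0.870 and -0.231 to 0.162; LY6D at SCA1low for Mt2, -0.154 to 0.179). The causes were not tested. The replicate block turned Mtf1 (-0.0154) and changed no call of the 10 genes. Deviations of libraries with the same number correlated at a median of 0.01 over 15 pairs of populations (-0.28 to 0.21). This does not settle if the numbers pair the libraries. A prefix in the library names goes with the replicate number, and its meaning is not given in the sources used here. The nearest library had the same number for 8 of 12 libraries, and the other number for 4, which cross between LY6D-SCA1high and LY6D-SCA1low; this is a hint from the data and not from the design. Over all genes, edgeR called 194 higher and 185 lower between LY6D states, RLE 106 and 190, limma-trend 117 and 101, the model without interaction 60 and 85, and DESeq2 881 and 1327. Between SCA1high and SCA1low these were 66 and 119, 35 and 157, 26 and 95, 36 and 91, and 505 and 798, with 184 and 77 for library size only. With 2 libraries a population, the spread between libraries limits what could be called.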

Other observations

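Among genes linked to other metals and to inducers of metallothioneins, edgeR called 2 between LY6D states, where it called 2.48% of all tested genes and 20.4% had an unadjusted p below 0.05. Of 11 copper handling genes, 10 were tested and 1 rose in LY6D+ cells: Cp, which encodes the copper-carrying ferroxidase ceruloplasmin, had a log2 fold change of 3.11 ± 0.42 (edgeR adjusted p = 2.53e-05). It stood at 182 to 462 CPM in LY6D+ and at 4.52 to 139 CPM in LY6D- libraries. Of 11 glucocorticoid-responsive genes, all tested, 1 rose: Errfi1, a feedback inhibitor of the EGF receptor, at 1.81 ± 0.41 (edgeR adjusted p = 0.0128), from 10.3 to 220.4 CPM in LY6D- to 274 to 599.7 CPM in LY6D+ libraries. Of 12 iron and oxidative stress genes and 9 tested citrate genes 0 were called between LY6D states, with 1 of each at an unadjusted p below 0.05. The 1 in the iron and oxidative stress list was Slc7a11, which encodes the cystine transporter, at 6.15 ± 1.81 (edgeR adjusted p = 0.0667), named after its value was seen. Between SCA1high and SCA1low edgeR called 0 in any of these 4 lists, with 0 copper, 1 iron and oxidative stress, 3 glucocorticoid-responsive and 1 citrate gene at an unadjusted p below 0.05, against 1.21% called and 12.1% unadjusted over all tested genes. A missed threshold does not show that these genes were level.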
